A study of Mus musculus with 6 samples.

Results

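Mitochondrial ribosomal proteins are the protein components of the ribosome that works inside mitochondria. Their 78 genes were taken here by symbol, as every gene named Mrpl or Mrps followed by a digit, pseudogenes left out, among 19949 genes with a count. The symbols alone set the list, though earlier results of these data were known when it was chosen. The series profiled colon tissue by RNA sequencing in STAT6-/- mice of the BALB/c strain (3 libraries) and in wild-type (WT) BALB/c mice (3 libraries). STAT6 is the transcription factor that carries interleukin-4 and interleukin-13 signals, and the STAT6-/- mice carry a disrupted Stat6 gene. The labels give this genotype and not how the allele was made. All 6 libraries came from mice aged 6 to 8 weeks that were given 3% DSS (dextran sulfate sodium, a polymer toxic to the lining of the colon) over 3 days. Untreated colons are not analysed here, so every difference is one between genotypes under DSS. The extraction notes name both proximal intestine and colon, scraped on the luminal side.

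Mitochondria keep a small genome that encodes core subunits of the respiratory chain and of the ATP synthase, and a dedicated ribosome translates them at the inner membrane. Its RNA is made in the mitochondrion, but all of its proteins are encoded in the nucleus, made on cytosolic ribosomes and imported. The large subunit (Mrpl genes, with Mrps30 and Mrps18a) forms the peptide bond, and the small subunit (Mrps genes) reads the mRNA. Proteins of bacterial type have a counterpart in bacterial ribosomes, and mitochondria-specific proteins were added later in evolution. The colonic epithelium relies on mitochondrial respiration, since its surface cells burn butyrate. In bulk tissue, fewer cells of a type and less RNA per cell cannot be told apart.

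The libraries held 19224779 to 19555450 expected counts in STAT6-/- colons and 17122315 to 17433876 in WT colons. Stat6 stood at 47.2 ± 7.74 CPM in STAT6-/- and 94.8 ± 8.11 CPM in WT (counts relative to the TMM-scaled library total, mean ± SD, n = 3 each), a log2 fold change of -1.01 ± 0.16 (SE, with an adjusted p of 0.0134 by the quasi-likelihood test of edgeR after Benjamini and Hochberg). Its exact two-sided permutation p was 0.1, the smallest that 3 against 3 allows. All 10 epithelial markers were detected, with summed levels of 17491 to 28751 CPM in STAT6-/- and 17005 to 22291 CPM in WT. The Y-linked genes Eif2s3y, Uty and Kdm5d were listed at 0 in all 3 WT libraries and were present in the STAT6-/- libraries, so sex and genotype cannot be told apart. The labels do not say whether replicates are separate animals, and the p-values then measure only the spread between these samples, which may be technical.

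Many genes of mitochondrial proteins carry letters read by the transcription factors NRF1, GABP (of the ETS family) and YY1 close to their start, and the promoters below show where such letters lie in members that passed the test of genotype. The RefSeq promoter table (GRCm38.p6) held 69 of the 78 members, each as 250 bases before to 50 bases after a start. Letters GCGCANGCG (NRF1) stood on either strand in 16 of the 69 members, 23.2%, against 7.03% of 27025 promoters in the table. Letters CCGGAAG (ETS) stood in 26 members, 37.7%, against 9.93% of all promoters. Letters AAGATGGCG (YY1) stood in 8 members, 11.6%, against 1.64% of all promoters. In all, 42 members (60.9%) had at least 1 of the 3, against 16.5% of all promoters. The letters were not particular to the members. Of 70 cytosolic ribosomal protein genes with a listed promoter, 14.3% held NRF1, 37.1% ETS and 5.71% YY1 letters. Of 67 genes for subunits of oxidative phosphorylation the shares were 29.9%, 25.4% and 10.4%. Each stretch shows the 150 bases before the start on the gene's own strand, 5′ to 3′, with the matching letters in capitals. Mrpl30 (chr1:37890327-37890476, plus strand) had NRF1 letters on both strands, starting 102 and 82 bases before the start. Mrpl32 (chr13:14613038-14613187, minus strand) had NRF1 letters at 3 places, of which the first pair overlap. Mrpl48 (chr7:100583131-100583280, minus strand, 1 of its 4 listed starts) had ETS letters on the opposite strand, 34 bases before the start. Mrps11 (chr7:78782981-78783130, plus strand) had YY1 letters on the opposite strand, 108 bases before the start.
Mrpl30: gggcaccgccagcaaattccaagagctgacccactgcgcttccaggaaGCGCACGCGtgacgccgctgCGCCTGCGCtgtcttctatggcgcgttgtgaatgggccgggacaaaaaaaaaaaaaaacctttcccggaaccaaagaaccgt
Mrpl32: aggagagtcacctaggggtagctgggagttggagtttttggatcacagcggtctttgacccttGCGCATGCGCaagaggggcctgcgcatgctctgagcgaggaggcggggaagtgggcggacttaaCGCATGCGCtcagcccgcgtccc
Mrpl48: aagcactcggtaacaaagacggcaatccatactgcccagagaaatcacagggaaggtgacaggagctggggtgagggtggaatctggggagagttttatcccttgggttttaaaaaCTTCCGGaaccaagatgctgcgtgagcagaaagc
Mrps11: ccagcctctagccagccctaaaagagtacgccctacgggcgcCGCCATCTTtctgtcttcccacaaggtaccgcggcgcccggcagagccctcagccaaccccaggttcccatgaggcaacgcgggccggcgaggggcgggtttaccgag

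Members that fell and members that did not pass held these letters side by side. Among the 13 members that fell and had a listed promoter, 2 held NRF1 letters, 5 held ETS letters and 2 held YY1 letters. Among the 55 members that did not pass the test, the counts were 14, 21 and 5. A match is a description of the sequence, not a measured binding site.

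In STAT6-/- colons 14 mitochondrial ribosomal protein genes fell, led by Mrpl42, Mrpl48, Mrpl23 and Mrps17, each 2.03-fold to 2.49-fold lower, and Mrps11 rose. The other 63 members did not pass the test. A gene is said to rise or fall where its edgeR adjusted p over 15066 tested genes was below 0.05. All 78 members were tested. The member that rose was 1.28% of the list, against 11.4% of all tested genes that rose, and the 14 that fell were 17.9%, against 11.5%. Either way 19.2% of the members passed, against 22.9% of all genes. Their median log2 fold change was -0.25, against 0.01 over all tested genes, and the members ran from -1.31 to 0.87. Of the 78, 50 lay below 0 and 28 above. In a fit with the trends of fold change on GC content and length over all genes removed, 3 members fell: Mrpl23, Mrpl48 and Mrps17. These were 3.85%, against 6.85% of all tested genes, and 10 members rose (12.8%, against 8.02%). The STAT6-/- libraries were all below the WT libraries for 28 members, 35.9% against 24.5% of all tested genes, and all above them for 7 members, 8.97% against 22%. These counts rest on single libraries: 7 members fell and 0 rose without STAT6-/- replicate 1, 5 fell and 0 rose without WT replicate 1, and 0 passed without WT replicate 2 or without WT replicate 3. Calls over all genes dropped as well, to 6.81% that rose and 4.94% that fell without STAT6-/- replicate 1, 11.7% either way against 8.97% of the members, and to 4.25% and 4.87% without WT replicate 1, 9.12% either way against 6.41% of the members. They dropped further, to 0.136% that rose and 0.0645% that fell without WT replicate 2, and to 0.0779% and 0.039% without WT replicate 3.

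The shift was not even across the 3 STAT6-/- libraries. The summed level of the 78 genes was 2999, 3221 and 2076 CPM in STAT6-/- replicates 1 to 3, against 3335, 3632 and 3126 CPM in WT replicates 1 to 3. STAT6-/- replicate 3 was the lowest of its group for 77 of the 78 members and the lowest of all 6 libraries for 56. The median log2 ratio of the members to the WT mean was -0.69 in that library, and -0.09 and -0.02 in STAT6-/- replicates 1 and 2. In the WT libraries it lay between -0.10 and 0.10. The median coefficient of variation of a member was 22.8% among STAT6-/- libraries, 9.45% among them without replicate 3, and 8.71% among WT libraries. Over all tested genes it was 25.4% among STAT6-/- libraries and 13.1% among WT libraries, so a wider spread in STAT6-/- was not particular to the members.

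**Figure D1:**
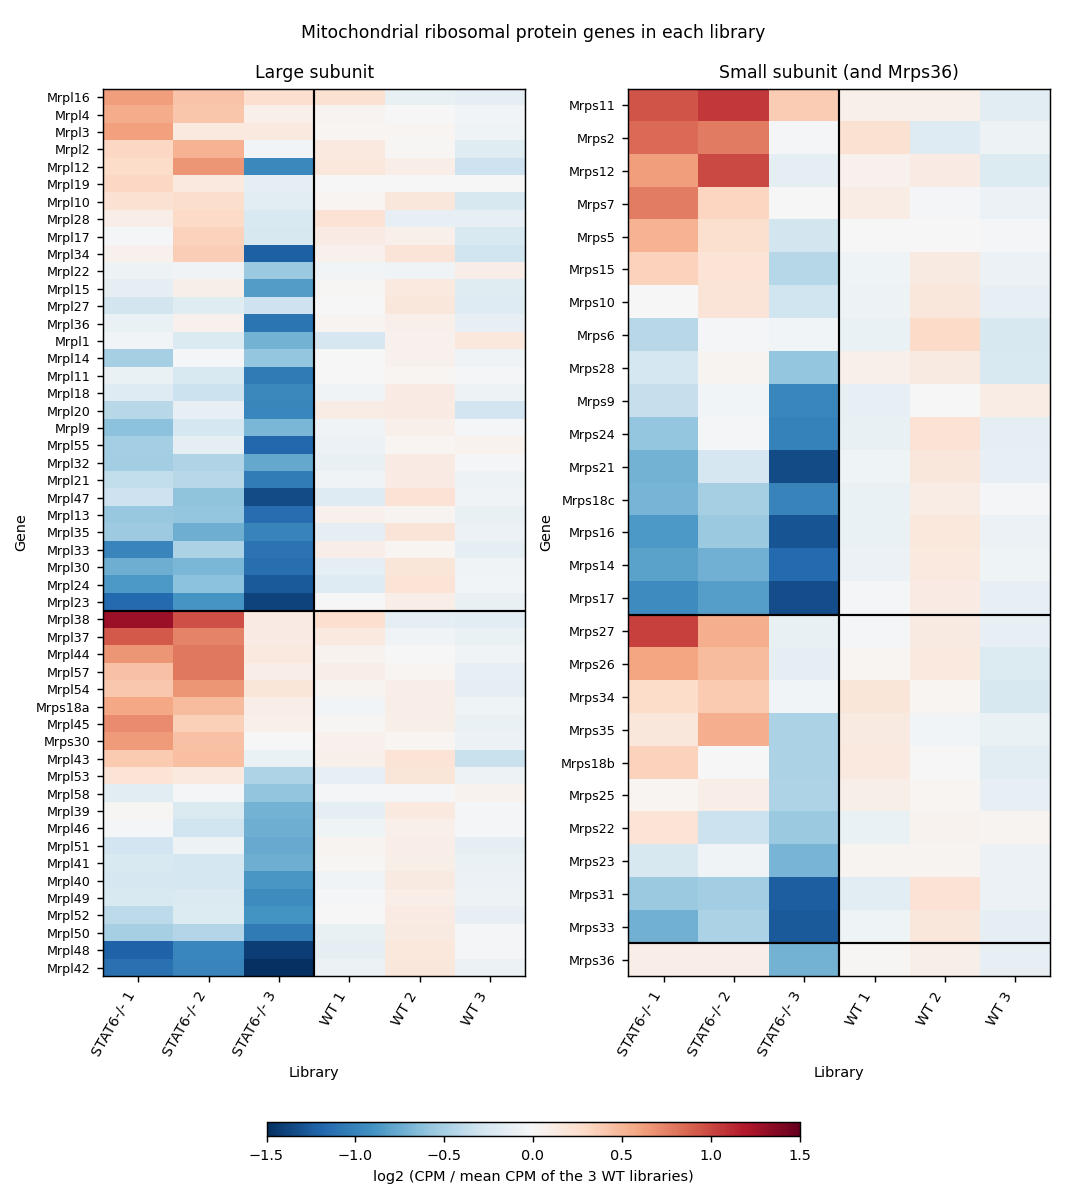
Heat map of the 78 genes (rows, by subunit, with bacterial-type members above the black line and mitochondria-specific members below it, and Mrps36 last) in the 3 STAT6-/- and 3 WT libraries (columns). Colour is the log2 ratio of CPM to the mean CPM of the 3 WT libraries, capped at the ends of the colour bar. STAT6-/- replicate 3 is the bluest column, with a median of -0.69.

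Without STAT6-/- replicate 3, 14 members rose (17.9%, against 12.5% of 15223 tested genes) and 12 fell (15.4%, against 10.1%), with a median log2 fold change of -0.04. All 12 were among the 14 that fell with all 6 libraries. The other 2 of these, Mrpl32 and Mrpl33, had edgeR adjusted p of 0.0574 and 0.0547. The same library also differed in other ways. It had the largest count-weighted mean effective transcript length (3411.9 bases, against 3178.6 and 3199.3 in the other STAT6-/- libraries and 2926.4 to 3082.7 in WT). Its neutrophil markers summed to 1397 CPM, against 655 and 457 CPM in the other STAT6-/- libraries and 280.0 to 395 CPM in WT. Its colonocyte markers summed to 1856 CPM, against 3223 and 5482 CPM in the other STAT6-/- libraries and 6017 to 8272 CPM in WT. Its epithelial markers went the other way and were the highest of the 6 libraries, at 28751 CPM, against 17491 and 22564 CPM in the other STAT6-/- libraries and 17005 to 22291 CPM in WT. The part of these differences in the members' levels was not tested.

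In the large subunit 7 of 30 bacterial-type genes and 2 of 21 mitochondria-specific genes fell in the main edgeR fit. In that fit 0 of either class rose, while other fits had large-subunit genes that rose, as given below. The largest fall was that of Mrpl42 (chr10:95480805-95501949, Entrez Gene 67270), a mitochondria-specific protein. It had 51.2, 56.0 and 26.6 CPM in STAT6-/- replicates 1 to 3, against 104, 125 and 104 CPM in WT. The highest STAT6-/- library lay well below the lowest WT library. The log2 fold change was -1.31 ± 0.28 (SE; edgeR adjusted p = 0.0226), or 2.49-fold lower. It was -0.59 with GC and length trends removed and did not pass (edgeR adjusted p = 0.0604). Mrpl42 shares chromosome 10 with Stat6 and lies 32.1 Mb from it.

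Mrpl48 (chr7:100545779-100608301), a protein of the central protuberance of the large subunit, had the smallest p of the members. Its level was 29.7, 34.8 and 25.8 CPM in STAT6-/- and 62.4, 76.4 and 67.2 CPM in WT, 2.28-fold lower (log2 change -1.19 ± 0.16, edgeR adjusted p = 0.0103). Its coding transcript made up 95.7% ± 3.77 of its counts in STAT6-/- and 96.5% ± 0.934 in WT (SD, n = 3 each). Mrpl23 (chr7:142532467-142540747) is of the bacterial type and sits at the mouth of the tunnel through which the new protein leaves. It stood at 23.0, 28.0 and 19.7 CPM in STAT6-/- and 51.6, 55.4 and 48.0 CPM in WT, 2.19-fold lower (log2 change -1.13 ± 0.17, edgeR adjusted p = 0.0118). For both genes the groups were far apart, with STAT6-/- replicate 3 the lowest library.

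Next to Mrpl23 at the tunnel exit lies Mrpl24, also of the bacterial type. Mrpl24 had 56.5, 66.6 and 42.8 CPM in STAT6-/- and 89.5, 118 and 99.8 CPM in WT, 1.85-fold lower (edgeR adjusted p = 0.025). Mrpl30 (chr1:37890477-37898338), whose promoter is printed above, had 61.3, 63.5 and 46.6 CPM in STAT6-/- and 92.8, 116 and 98.4 CPM in WT, 1.79-fold lower (edgeR adjusted p = 0.0201). In neither gene did a STAT6-/- library reach a WT library. Neither passed with GC and length trends removed (log2 fold changes -0.40 and -0.17, edgeR adjusted p = 0.0745 and 0.337). Mrpl33, a small bacterial-type protein, had 24.5, 35.3 and 22.6 CPM in STAT6-/- and 52.5, 49.8 and 44.3 CPM in WT, 1.78-fold lower (edgeR adjusted p = 0.0292). Mrpl35 had 35.9, 31.5 and 26.2 CPM in STAT6-/- and 47.8, 60.1 and 49.4 CPM in WT, 1.68-fold lower (edgeR adjusted p = 0.0263). Both again kept their groups apart. Mrpl35 did not pass with GC and length trends removed (log2 fold change -0.5, edgeR adjusted p = 0.0792).

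Mrpl13, whose bacterial counterpart binds early during assembly of the large subunit, had 34.5, 34.1 and 23.2 CPM in STAT6-/- and 53.6, 52.4 and 47.4 CPM in WT, 1.67-fold lower (edgeR adjusted p = 0.0321). Mrpl32 (chr13:14610301-14613037) showed the smallest change of the 15 members past the test. This protein is trimmed after import by the protease that Afg3l2 and Spg7 form. Mrpl32 had 27.5, 28.8 and 23.3 CPM in STAT6-/- and 36.6, 43.2 and 38.7 CPM in WT, 1.49-fold lower (log2 change -0.57 ± 0.15, edgeR adjusted p = 0.0363). With GC and length trends removed Mrpl32 turned to a log2 fold change of 0.22 and Mrpl33 to 0.05, neither past the test. Mrpl13 stood at -0.23 there and did not pass (edgeR adjusted p = 0.236). Mrpl32 kept its call in 1 of 6 fits that each left out a library and in 7 of 13 other settings. In both genes all STAT6-/- libraries were below all WT libraries.

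In the small subunit 4 of 16 bacterial-type genes and 1 of 10 mitochondria-specific genes fell in the main fit, and 1 bacterial-type gene rose. Over all tested genes 11.5% fell and 11.4% rose. Mrps17 (chr5:129715450-129718712), whose bacterial counterpart binds the ribosomal RNA directly, had the largest fall of the subunit. It stood at 20.3, 22.0 and 15.5 CPM in STAT6-/- and 38.5, 42.7 and 36.0 CPM in WT, 2.03-fold lower (log2 change -1.02 ± 0.18, edgeR adjusted p = 0.0151). Mrps14 (chr1:160195215-160201186) had 46.5, 49.2 and 36.1 CPM in STAT6-/- and 76.6, 89.7 and 77.7 CPM in WT, 1.85-fold lower (log2 change -0.89 ± 0.16, edgeR adjusted p = 0.016). No STAT6-/- library of either gene came near a WT library. Mrps14 did not pass with GC and length trends removed (log2 fold change -0.33, edgeR adjusted p = 0.11).

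Mrps16 is a bacterial-type protein whose loss causes a respiratory chain deficiency in humans. It had 29.9, 37.0 and 22.2 CPM in STAT6-/- and 50.7, 60.7 and 51.2 CPM in WT, 1.83-fold lower (edgeR adjusted p = 0.0286). Its log2 fold change was -0.07 with GC and length trends removed and did not pass (edgeR adjusted p = 0.651). Mrps18c is the member of the Mrps18 trio that takes the place of the bacterial protein. It had 37.8, 43.4 and 30.5 CPM in STAT6-/- and 57.1, 66.3 and 60.7 CPM in WT, 1.65-fold lower (edgeR adjusted p = 0.0259). With GC and length trends removed Mrps18c turned to a log2 fold change of 0.13 and did not pass. The 2 other members of the trio, Mrps18a in the large subunit and Mrps18b in the small one, did not pass, with log2 fold changes of 0.40 ± 0.17 and -0.00 ± 0.23. Mrps33, the mitochondria-specific gene that fell, had 33.5, 39.5 and 23.0 CPM in STAT6-/- and 52.8, 62.1 and 50.4 CPM in WT, 1.72-fold lower. Its edgeR adjusted p of 0.0417 was the largest of the members that fell. Mrps33 did not pass with GC and length trends removed (log2 fold change -0.20, edgeR adjusted p = 0.342).

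Mrps11 (chr7:78783131-78792988), a bacterial-type protein of the small subunit's platform, was the member that rose. Its level was 19.4, 20.9 and 13.1 CPM in STAT6-/- and 10.6, 10.6 and 9.02 CPM in WT, 1.77-fold higher (log2 change 0.82 ± 0.24, edgeR adjusted p = 0.0457). Even STAT6-/- replicate 3, the lowest of its group, was above every WT library. The start of Mrps11 lies back to back with that of Mrpl46, a mitochondria-specific gene of the large subunit on the other strand, and their annotated exons overlap. Mrpl46 had 32.2, 26.7 and 19.9 CPM in STAT6-/- and 31.6, 34.8 and 32.4 CPM in WT, with overlapping groups and a log2 fold change of -0.33 ± 0.20 (edgeR adjusted p = 0.255). The library notes do not state whether strand was kept, and without strand, reads in the shared stretch cannot be assigned to 1 of the pair. The exons of 33 members overlap those of another gene in the GENCODE M21 annotation, and 6 of these passed the test: Mrpl13, Mrpl24, Mrpl33, Mrpl48, Mrps11 and Mrps18c.

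**Figure D2:**
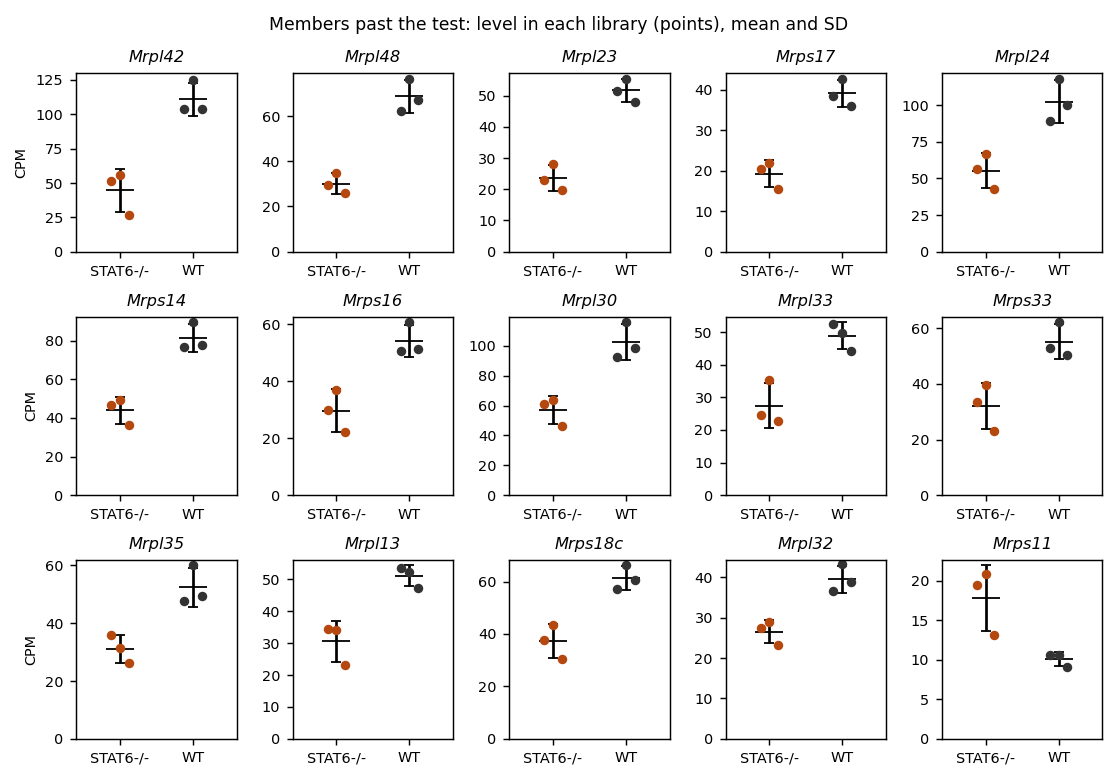
CPM of the 15 members past the test in each library (points), with the mean (long bar) and SD (whiskers) of the 3 STAT6-/- libraries at left and the 3 WT libraries at right. Each axis starts at 0. The groups do not overlap in any panel, and Mrps11 is the panel with STAT6-/- above WT.

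Members close to the threshold split in both directions. Mrpl38, a mitochondria-specific protein of the central protuberance, had the largest log2 fold change among those that did not pass, 0.87 ± 0.31 (edgeR adjusted p = 0.0791). It stood at 42.7, 34.3 and 19.1 CPM in STAT6-/- and 20.9, 15.9 and 15.7 CPM in WT. STAT6-/- replicate 3 lay inside the WT range and the other 2 were above it. Mrps31, a mitochondria-specific gene of the small subunit, had 22.8, 23.2 and 14.2 CPM in STAT6-/- and 29.7, 39.0 and 31.5 CPM in WT, with a log2 fold change of -0.73 ± 0.23 (edgeR adjusted p = 0.0597). Mrpl50 and Mrpl9 missed by least, with log2 fold changes of -0.64 ± 0.19 and -0.51 ± 0.16 and edgeR adjusted p of 0.0531 and 0.0566.

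The 14 members that rose without STAT6-/- replicate 3 were mostly mitochondria-specific, 10 of 14, while 3 of the 12 that fell were. Among all 78 members 31 were. The 14 had a median level of 25.9 CPM, GC content of 53.7% and effective length of 1410 bases. For the 12 that fell these medians were 46.4 CPM, 47.4% and 849 bases. The part of these traits was not tested. Those that rose included Mrpl37 (log2 fold change 0.88, edgeR adjusted p = 0.02), Mrpl38 (1.18, edgeR adjusted p = 0.0206) and Mrpl44 (0.77, edgeR adjusted p = 0.0246), all of the large subunit. Mrpl44 carries a fold of the ribonuclease III type. Mrpl37 had 49.5, 43.6 and 28.5 CPM in STAT6-/- and 28.9, 25.1 and 24.3 CPM in WT. The third STAT6-/- library lay inside the WT range there. With all 6 libraries Mrpl37 and Mrpl44 did not pass (log2 fold changes 0.64 ± 0.22 and 0.56 ± 0.21, edgeR adjusted p = 0.0775 and 0.092). With all libraries, bacterial-type members had a median log2 fold change of -0.29 (46 genes, 1 rose and 11 fell) and mitochondria-specific members one of -0.09 (31 genes, 0 rose and 3 fell). These class medians were 0.12 (4 rose and 2 fell) and 0.26 (6 rose and 1 fell) with GC and length trends removed. That difference between classes was not tested. Mrps27, a mitochondria-specific RNA-binding protein of the small subunit, had 27.3, 19.7 and 12.4 CPM in STAT6-/- and 13.3, 14.7 and 12.3 CPM in WT. Mrpl45, which holds the ribosome to the inner membrane near the tunnel exit, had 39.2, 30.7 and 25.3 CPM in STAT6-/- and 24.2, 25.4 and 22.3 CPM in WT. In both genes STAT6-/- replicate 3 lay inside the WT range. Mrpl58, a release factor built into the large subunit, had 28.7, 31.7 and 21.3 CPM in STAT6-/- and 31.3, 31.6 and 33.4 CPM in WT, and did not pass in either fit.

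**Figure D3:**
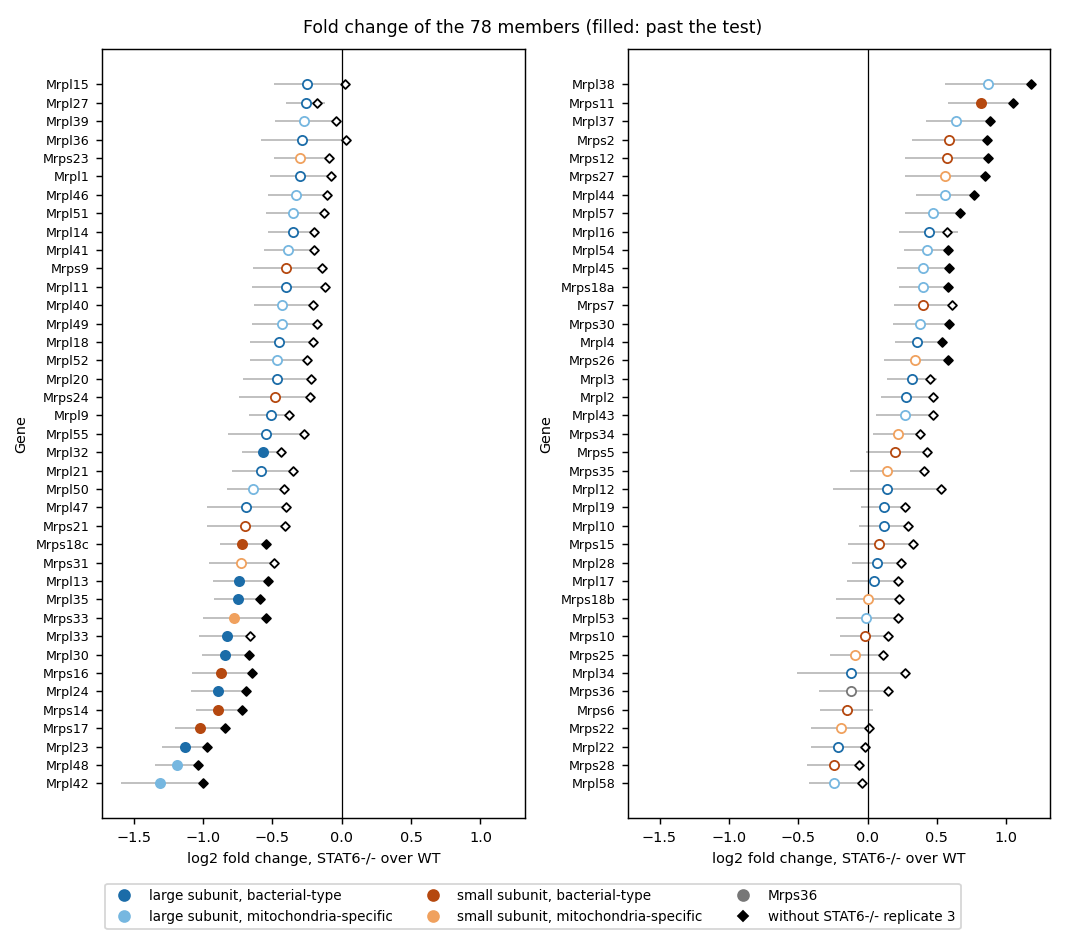
Log2 fold change of the 78 members, STAT6-/- over WT (circles, grey bar 1 SE, filled where the edgeR adjusted p is below 0.05, coloured by class), ordered by value and split over 2 panels. Black diamonds give the fold change without STAT6-/- replicate 3, filled where that fit passed. The 14 members that fell lie at the bottom left and Mrps11 near the top right; most diamonds are shifted to the right.

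The balance between the subunits overlapped between the genotypes. The summed CPM of large-subunit genes was 2.27, 2.25 and 2.21 times that of small-subunit genes in STAT6-/- replicates 1 to 3, against 2.32, 2.25 and 2.29 times in WT. The large subunit had a median log2 fold change of -0.29 (51 genes, 0 rose and 9 fell) and the small subunit one of -0.12 (26 genes, 1 rose and 5 fell). These subunit medians were 0.11 (7 rose and 2 fell) and 0.26 (3 rose and 1 fell) with GC and length trends removed. Mrps36, which bears a ribosomal name but is counted as a subunit of the ketoglutarate dehydrogenase complex, had 35.3, 35.6 and 20.3 CPM in STAT6-/- and 33.5, 35.3 and 30.5 CPM in WT. It did not pass (log2 fold change -0.12 ± 0.23, edgeR adjusted p = 0.719).

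Levels per length differed widely among proteins that each ribosome is thought to hold as a single copy. Mean FPKM (fragments scaled to transcript length and depth) over the 6 libraries ran from 4.3 for Mrpl19 to 155 for Mrps21, with a median of 31.6 over the members and 6.97 over all tested genes. Mrps21 had 122 ± 44.2 FPKM in STAT6-/- and 188 ± 9.93 FPKM in WT (SD, n = 3 each). Mrpl12, the stalk protein that recruits translation factors and is the known exception in copy number, had 138 ± 68.8 FPKM in STAT6-/- and 119 ± 16.8 FPKM in WT. Its CPM were 140.0, 182 and 59.1 in STAT6-/- and 129, 124 and 93.1 in WT, so 2 of the STAT6-/- libraries were the highest of the 6 and the third the lowest. Mrpl52 had 111 ± 28.1 FPKM in STAT6-/- and 146 ± 4.49 FPKM in WT, and Mrpl42 had 71.5 ± 27.2 FPKM in STAT6-/- and 168 ± 9.68 FPKM in WT.

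These 4 lead by the mean over all 6 libraries and not in each genotype. In STAT6-/- the FPKM of Mrpl12, Mrps21 and Mrpl52 overlapped within their SD, and Mrpl42 was also below other members such as Mrps6 (88.7 FPKM) and Mrpl30 (87.7 FPKM). In WT Mrpl42 was second to Mrps21, and Mrpl30 (149 FPKM) was above Mrpl52 and Mrpl12. At the low end were genes with long annotated transcripts. Mrpl19 had 4.58 ± 0.981 FPKM in STAT6-/- and 4.02 ± 0.215 FPKM in WT, and Mrpl17 had 5.58 ± 1.2 FPKM in STAT6-/- and 5.17 ± 0.521 FPKM in WT. Mrps25 had 6.6 ± 1.56 FPKM in STAT6-/- and 6.68 ± 0.419 FPKM in WT. Each of these differences was within the SD of the STAT6-/- libraries. None of these 3 passed (edgeR adjusted p = 0.634, 0.879 and 0.74), nor did Mrps21 (0.0983), Mrpl12 (0.811) or Mrpl52 (0.116).

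Abundant members tended to have lower fold changes than scarce ones. Across the 78 genes the log2 fold change had a Spearman correlation of -0.51 with mean log2 CPM, against 0.03 across all tested genes. These points share the same 6 libraries and are a description across genes. Of the 39 members above the median level, 12 fell and 0 rose, with a median log2 fold change of -0.43. Of the 39 at or below it, 2 fell and 1 rose. Over all tested genes, not split by level, 11.5% fell and 11.4% rose. GC content and length also moved with the fold change, with correlations of 0.36 and 0.27 over the members and 0.27 and 0.13 over all genes. The 14 members that fell had transcripts of median GC content 47.1%, against 51.5% in the 63 that did not pass, and of median effective length 756 bases, against 1121 bases.

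**Figure D4:**
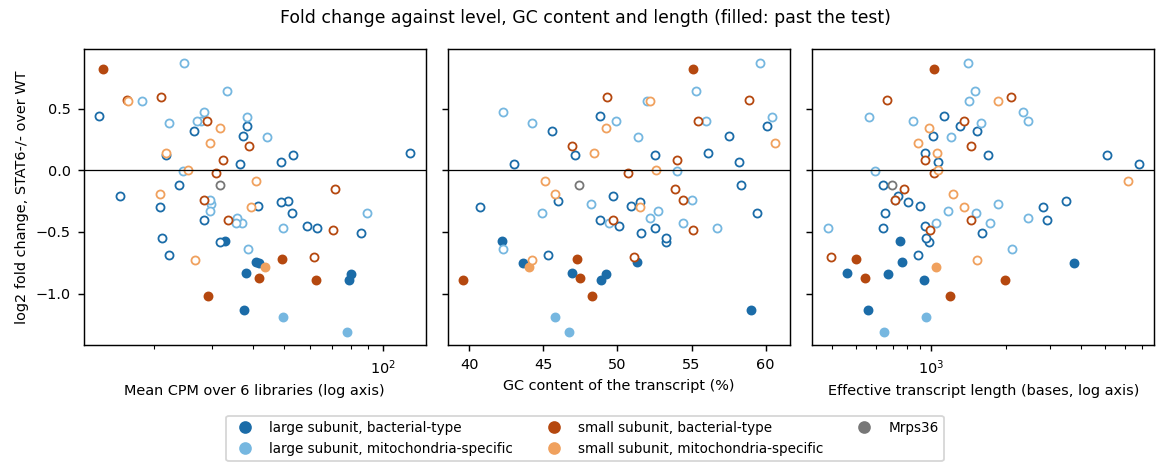
Log2 fold change, STAT6-/- over WT, of the 78 members (points, coloured by class, filled where they passed) against mean CPM over 6 libraries (log axis), transcript GC content in percent and effective transcript length in bases (log axis). Filled points below 0 gather at higher CPM, lower GC content and shorter length; the correlations are -0.51, 0.36 and 0.27.

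Removing the trends of fold change on GC content and length that run over all genes changed the calls. In that fit 10 members rose (12.8%, against 8.02% of all tested genes) and 3 fell (3.85%, against 6.85%), and the median log2 fold change was 0.14. The 3 that fell there were Mrpl23 (-0.67, edgeR adjusted p = 0.0194), Mrpl48 (-0.60, edgeR adjusted p = 0.0214) and Mrps17 (-0.65, edgeR adjusted p = 0.0253). Mrps11 rose again, with a log2 fold change of 1.01 (edgeR adjusted p = 0.0211). With libraries scaled to the summed counts of the members, so that the list as a whole was level, 9 members rose (11.5%, against 11.4% of all tested genes) and 4 fell (5.13%, against 2.82%). Those that fell were Mrpl23, Mrpl42, Mrpl48 and Mrps17. That scaling, chosen after the data were seen, put the median of all genes at 0.34. Mrpl23, Mrpl48 and Mrps17 fell under this scaling and under each of the 13 other settings of scaling, filter and test. They lost their call when WT replicate 2 or WT replicate 3 was left out, as did the 11 other members that fell. In those fits 0 members passed, and of all genes 31 and 18 passed. At an unadjusted p below 0.05 in edgeR were 15 and 18 of the 78 members. The counts over all genes were 4370 of 15497 and 4285 of 15395.

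Among the other genes of mitochondrial translation some rose and some fell. Of all tested genes 11.4% rose and 11.5% fell, 22.9% either way. The list of proteins of the same ribosome with other names held Dap3, Chchd1, Aurkaip1, Ptcd3 and Gadd45gip1. With all libraries, 0 of these 5 passed in TMM-scaled edgeR, DESeq2 or limma. Their median log2 fold change was -0.38, and 2 had an unadjusted p below 0.05 in edgeR. Gadd45gip1 rose without STAT6-/- replicate 3 (log2 fold change 0.83, edgeR adjusted p = 0.0267). It also rose with all 6 libraries scaled to the summed members (0.84, edgeR adjusted p = 0.0426). Of 16 tested translation factors 2 rose and 1 fell. Tsfm, the exchange factor of the elongation factor Tufm, had 25.9, 24.1 and 12.6 CPM in STAT6-/- and 9.7, 8.25 and 7.26 CPM in WT, 2.48-fold higher (log2 change 1.31 ± 0.31, edgeR adjusted p = 0.0271). Gfm1, the translocation factor, had 57.9, 47.2 and 39.6 CPM in STAT6-/- and 30.9, 29.0 and 26.7 CPM in WT, 1.67-fold higher (edgeR adjusted p = 0.0276). Both stood above every WT library in all 3 STAT6-/- libraries. Mrrf, which recycles ribosomes after termination, had 13.4, 16.1 and 10.3 CPM in STAT6-/- and 26.7, 36.0 and 33.9 CPM in WT, 2.43-fold lower (log2 change -1.28 ± 0.22, edgeR adjusted p = 0.0149). Tufm, the most abundant of the list, did not pass, with a log2 fold change of 0.80 ± 0.26 (edgeR adjusted p = 0.0669).

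Of 30 genes for assembly and modification of the mitochondrial ribosome, 1 rose and 3 fell, against 11.4% and 11.5% of all tested genes. Spg7, a subunit of the protease that trims Mrpl32, had 77.8, 93.4 and 85.8 CPM in STAT6-/- and 53.9, 55.1 and 48.4 CPM in WT, 1.63-fold higher (edgeR adjusted p = 0.0169). Its partner Afg3l2, the most abundant of the list, had overlapping groups and a log2 fold change of 0.12 ± 0.18 (edgeR adjusted p = 0.637). Gtpbp10, a GTPase for maturation of the large subunit, was 1.77-fold lower (edgeR adjusted p = 0.0305). Mterf3 and the RNA methyltransferase Mettl15 were 1.54-fold and 2.24-fold lower (edgeR adjusted p = 0.0343 and 0.0375). These 3 falls lost their call without STAT6-/- replicate 3 (edgeR adjusted p = 0.0606, 0.0546 and 0.0712) and once the trends with GC content and length were taken out (0.224, 0.64 and 0.116). Of the list, 5 genes rose and none fell in the fit without that library, and 2 (Malsu1 and Mpv17l2) rose and none fell in the fit without the trends, where Spg7 had an edgeR adjusted p of 0.0776. Of 17 genes for mitochondrial transcription and its nuclear regulators, 2 rose and 2 fell. Polrmt, the mitochondrial RNA polymerase, was 1.81-fold higher (edgeR adjusted p = 0.0444) and Pprc1, a coactivator of nuclear genes for mitochondrial proteins, 2.2-fold higher (edgeR adjusted p = 0.0213). Mterf2 and Tfb2m, a cofactor of Polrmt, were 2.59-fold and 1.7-fold lower (edgeR adjusted p = 0.0228 and 0.0353). With GC and length trends removed these 4 genes did not pass (edgeR adjusted p from 0.0575 for Mterf2 to 0.211 for Polrmt). Esrra, the most abundant of that list, did not pass (log2 fold change 0.56 ± 0.23, edgeR adjusted p = 0.118).

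The ribosome of the cytosol and the respiratory chain were set beside the members. Of 86 tested cytosolic ribosomal protein genes 0 rose and 68 fell, with a median log2 fold change of -1.20. With GC and length trends removed 1 rose and 48 fell (median -0.62), and without STAT6-/- replicate 3, 66 fell (median -0.97). The cytosolic genes summed to 38866, 44549 and 27979 CPM in STAT6-/- and 76902, 90697 and 77727 CPM in WT. These genes have many processed pseudogenes, with which reads can be shared. The STAT6-/- sum was 0.454 times the WT sum there and 0.822 times for the mitochondrial members. Of 83 nuclear-encoded subunits of oxidative phosphorylation 1 rose (Uqcrc1, 1.72-fold higher, edgeR adjusted p = 0.0319) and 26 fell, with a median log2 fold change of -0.60. This list depended on the fit: 3 rose and 17 fell without STAT6-/- replicate 3 (median -0.37), and 11 rose and 15 fell with GC and length trends removed (median -0.06). The oxidative phosphorylation genes summed to 17245, 22940 and 14061 CPM in STAT6-/- and 23861, 26304 and 20941 CPM in WT. In all 3 lists STAT6-/- replicate 3 had the lowest sum. The differences between the lists were not tested.

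Markers of several cell types also differed between the genotypes. Beside the counts below, 11.4% of all tested genes rose and 11.5% fell. Smooth muscle markers fell in 7 of 8 genes, with sums of 2377 to 5329 CPM in STAT6-/- and 8979 to 11097 CPM in WT. Adipocyte markers fell in 4 of 5 tested genes, with sums of 9.87 to 32.4 CPM in STAT6-/- and 58.7 to 398 CPM in WT. Markers of cycling cells rose in 4 of 8 genes, with sums of 235 to 694 CPM in STAT6-/- and 79.2 to 190.0 CPM in WT. Colonocyte markers fell in 1 of 8 genes, with sums of 1856 to 5482 CPM in STAT6-/- and 6017 to 8272 CPM in WT. Skeletal or cardiac muscle markers fell in 2 of 4 tested genes, with sums of at most 38.1 CPM in STAT6-/- and of 73.1 to 145 CPM in WT. Endothelial markers rose in 3 of 7 genes, with sums of 80.4 to 203 CPM in STAT6-/- and 44.1 to 77.8 CPM in WT. Neutrophil markers rose in 1 of 6 genes, with sums of 457 to 1397 CPM in STAT6-/- and 280.0 to 395 CPM in WT. In these 7 lists the sums did not overlap between the groups. The sums of the other cell types overlapped: plasma cell markers rose in 3 of 6 genes, T cell markers in 2 of 6, and macrophage and monocyte markers in 1 of 9. Fibroblast markers fell in 2 of 7 genes and goblet cell markers in 1 of 7, epithelial markers had 2 of 10 that rose and 1 that fell, and enteric neuron and glia markers 2 of 8 that rose and 1 that fell. B cell markers summed to 25.1 to 312 CPM in STAT6-/- and 32.6 to 52.1 CPM in WT. The part of these cell types in the members' levels was not tested.

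The members lie on 17 chromosomes, 11 of them on chromosome 11 and none on X or Y. Of the 78, 68 had a single transcript in the files, so for these a change in the use of isoforms could not be seen. The other member on chromosome 10, Mrpl54, lies 46.4 Mb from Stat6 and had 43.4, 51.8 and 37.3 CPM in STAT6-/- and 33.8, 35.2 and 29.7 CPM in WT. Its groups did not overlap, but it did not pass (log2 fold change 0.43 ± 0.17, edgeR adjusted p = 0.101). The pair on the chromosome of Stat6 thus lay on opposite sides of 0.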

How the data were processed

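Each library has a table of expected counts, which the authors deposited as RSEM estimates of reads for every RefSeq transcript, unscaled across libraries according to the columns per the file headers. A second column holds FPKM, in which the authors had corrected for length and depth, per the file headers. The submitters' processing notes list Bowtie2 2.2.5, RSEM 1.2.12 and build mm10. Transcripts below an FPKM of 0.01 are absent from the tables and were taken as 0.

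Of 28238 transcripts, 27986 took a symbol from RefSeq's table for GRCm38.p6, which mm10 represents, 149 from GENCODE M21, and 103 (0.167% of counts) had none. Expected counts were summed per gene and rounded. Libraries held 17122315 to 19555450 counts. The comparison used edgeR 4.0.16 in R 4.3.3: quasi-likelihood F test, TMM, filterByExpr, robust estimation, Benjamini-Hochberg adjustment over all 15066 tested genes. The common dispersion was 0.102. CPM are TMM-scaled, and the SE is the log2 fold change over the square root of F. The test was also run on simulated data, whose values are not reported here. Motifs were sought on both strands by exact letters.

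The members, the companion and marker lists and the tests were chosen with earlier results of these data known, so no list is independent evidence. Members named are those past the test, the 4 highest and 3 lowest by mean FPKM, the 3 smallest called and 3 largest uncalled changes, and 2 on either side of the threshold. Mrps36, Mrps18a, Mrps18b, Mrpl46, Mrpl54, Mrpl58, Mrpl45 and Mrps27 and the genes that rose without STAT6-/- replicate 3 were named after their values were seen. Alternatives were RLE, upper quartile and library size scaling, no filter or 1 CPM in 3 libraries, DESeq2 1.42.0, limma-voom and limma 3.58.1 on log2 FPKM with 1 or 0.1 added, no robust estimation, genes over 1% left out, GC and length trends removed (values for 89.3% of tested genes), a replicate block and each library left out. Scaling to the summed members was added after the data were seen. Apart from the replicate block, libraries were not paired by replicate number. Figures were drawn with matplotlib 3.10.9.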

Additional observations from a re-analysis of the deposited data

How the results depend on the processing

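With each library left out in turn, the log2 fold change of Stat6 lay between -1.06 and -0.85, the genes that rose numbered 12 to 2750 and those that fell 6 to 2440. The members that rose numbered 0 to 14 and those that fell 0 to 20, and their median lay between -0.31 and -0.04. Leaving out WT replicate 2 or 3 took the call from Stat6 (-0.94 and -1.06) and from every member. Removing GC and length trends gave 1208 genes that rose and 1032 that fell, 10 members that rose, 3 that fell and a median of 0.14. With the trends removed 50 members lay above 0, against 28 with them kept. Those that turned included Mrpl32 (0.22), Mrpl33 (0.05), Mrpl52 (0.20), Mrps18c (0.13), Mrps21 (0.10) and Mrps25 (0.02). DESeq2 gave 2696 genes that rose (16.5%) and 2356 that fell (14.4%), with 2 members that rose (2.56%) and 17 that fell (21.8%). The members that rose numbered 0 with limma-voom, no filter, upper quartile scaling or the replicate block. In these fits 1446, 1700, 1527 and 1219 of all genes rose. Scaled to the summed members, 9 rose, 4 fell and 42 lay above 0, with Mrps25 (0.20) among those that turned. Mrpl12 turned with limma-voom (-0.00) and, over the libraries left out, lay between -0.18 and 0.53, Mrpl17 between -0.11 and 0.22 and Mrps25 between -0.16 and 0.11. The causes were not tested. With the replicate block 13 members fell, and 1219 genes rose and 1445 fell. The correlations of same-numbered deviations were 0.023, 0.0445 and 0.134. These values cannot show whether libraries of the same number were handled together. With 3 libraries a group, small changes are hard to detect at this spread.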
